A study of Homo sapiens with 11 samples.

Results

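The genes described here encode 5 receptor tyrosine kinases, EGFR, ERBB2, ERBB3, MET and AXL, and 5 ligands of the epidermal growth factor family, HBEGF, AREG, EREG, TGFA and EGF. They were chosen by name, 10 of the 19646 protein-coding genes found both in the RNA-seq data and in the hg19 annotation, and all 10 were found. The study mapped histone marks and RNA in HK2 cells, a human cell line of proximal tubule origin that was immortalised with papillomavirus genes and is a single line. All samples shared a single condition, growth in DMEM-F12 that contained fetal bovine serum, penicillin-streptomycin and a little DMSO, so no treatment or genotype was compared. The data used were 2 RNA-seq libraries of rRNA-depleted RNA and 6 ChIP-seq peak lists, 2 replicates each of H3K4me3 (found at promoters), H3K27ac (found at active promoters and enhancers) and H3K27me3 (found at genes silenced by Polycomb). No source says that replicates were separate cultures, so the spread given here may be technical.

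Ligands of the EGF family are made as membrane-anchored precursors, and metalloproteases such as ADAM17 release them. A released ligand joins receptors of the ERBB family into pairs, and the pair signals through the RAS-MAPK and PI3K-AKT cascades. ERBB2 has no known ligand of its own and ERBB3 has little kinase activity, so both work mainly as partners of other family members. MET is the receptor of hepatocyte growth factor (HGF), which comes mostly from mesenchymal cells, and AXL is bound by GAS6. In the adult kidney EGF is made by the thick ascending limb and the distal convoluted tubule, while EGFR and MET are present on proximal tubule cells and are known for their part in tubule repair.

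The 2 RNA-seq libraries held about 5.67 and 5.52 Gb of aligned bases, as estimated from the ratio of coverage to FPKM. FPKM is fragments scaled by transcript length and by library size, and a gene's FPKM was the sum over its transcripts. H3K27ac lists held 57687 peaks of a median 1357 bp in replicate 1 and 38554 peaks of a median 657 bp in replicate 2. H3K4me3 lists differed the other way in number, 28615 against 73505, with median widths of 1194 and 434 bp. The lists carry no score, so a mark was present or absent and the depth behind each peak is not given. Sequencing depth and the share of reads in peaks of each ChIP-seq library, which the study states, were not used here. Epithelial keratin KRT8 stood at an FPKM of 182 ± 3.73 (SD, n = 2) and the renal transcription factor PAX8 at 102 ± 2.79. Of 10 proximal tubule markers, however, 3 reached an FPKM of 1 in both libraries, namely PAX8, GGT1 at 61.1 ± 4.30 and SLC5A2 at 1.96 ± 0.565. LRP2, SLC22A6 and HNF4A were listed at 0 in both libraries, and mean FPKM was 0.0375 for CUBN, 0.109 for SLC34A1, 0.205 for AQP1 and 0.163 for ANPEP. The other 7 markers were thus under an FPKM of 1 in both libraries. Of 6 genes listed as epithelial markers 5 reached an FPKM of 1. The cadherins of this list differed, with CDH2 at 59.5 ± 0.260 and CDH1 under 1. CDH1 was the exception, at 0.210 in library 1 and 0.283 in library 2. H3K4me3, H3K27ac and H3K27me3 were all called near its starts in both replicates. None of 3 podocyte markers and none of 4 endothelial markers reached an FPKM of 1, the highest being NPHS1 at 0.00636 and CDH5 at 0.0202. Of 5 fibroblast markers 2 did, COL1A1 and LUM, and of 4 leukocyte markers CD68 alone, at 42.5 in library 1 and 36.8 in library 2.

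Promoter sequences are shown for 6 members, so that the receptors EGFR and MET can be set beside the 3 most expressed ligands and beside EGF, the lowest ligand. Each run is the 250 bases before the start of the canonical transcript in GRCh37, 5′ to 3′ on the strand of the gene, with matches to the searched letters in capitals.
EGFR: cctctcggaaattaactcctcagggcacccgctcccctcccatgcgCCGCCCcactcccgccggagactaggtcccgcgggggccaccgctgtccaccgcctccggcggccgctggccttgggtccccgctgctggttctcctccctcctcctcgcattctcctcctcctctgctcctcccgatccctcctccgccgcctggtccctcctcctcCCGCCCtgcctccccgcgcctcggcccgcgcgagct
MET: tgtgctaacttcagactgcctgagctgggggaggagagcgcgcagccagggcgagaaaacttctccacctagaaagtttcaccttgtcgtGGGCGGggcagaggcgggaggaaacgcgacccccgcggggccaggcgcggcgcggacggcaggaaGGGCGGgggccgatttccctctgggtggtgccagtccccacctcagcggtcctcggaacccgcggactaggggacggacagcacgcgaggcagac
HBEGF: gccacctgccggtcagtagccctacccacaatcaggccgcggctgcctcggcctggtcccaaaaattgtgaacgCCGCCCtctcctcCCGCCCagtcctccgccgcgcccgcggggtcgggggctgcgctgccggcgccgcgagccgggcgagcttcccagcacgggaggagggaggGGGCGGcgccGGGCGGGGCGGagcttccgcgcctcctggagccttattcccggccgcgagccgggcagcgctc
AREG: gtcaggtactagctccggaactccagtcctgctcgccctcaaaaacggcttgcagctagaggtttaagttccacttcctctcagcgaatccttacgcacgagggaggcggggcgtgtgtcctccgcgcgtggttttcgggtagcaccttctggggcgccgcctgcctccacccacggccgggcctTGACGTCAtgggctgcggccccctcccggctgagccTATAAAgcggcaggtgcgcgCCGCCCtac
EREG: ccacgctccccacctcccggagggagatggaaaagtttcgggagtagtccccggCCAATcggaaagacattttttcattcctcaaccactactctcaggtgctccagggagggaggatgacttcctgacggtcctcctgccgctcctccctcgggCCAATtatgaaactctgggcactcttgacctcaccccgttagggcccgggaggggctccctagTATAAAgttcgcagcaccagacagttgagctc
EGF: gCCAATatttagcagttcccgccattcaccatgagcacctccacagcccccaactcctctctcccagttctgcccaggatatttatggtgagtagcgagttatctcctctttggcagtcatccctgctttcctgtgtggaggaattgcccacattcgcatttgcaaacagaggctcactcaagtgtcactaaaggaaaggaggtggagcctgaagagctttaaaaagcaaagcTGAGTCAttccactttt
These runs lie at chr7:55086460-55086709 for EGFR, chr7:116312000-116312249 for MET and chr5:139726189-139726438 for HBEGF, which is on the minus strand. On chromosome 4 they lie at chr4:75310603-75310852 for AREG, chr4:75230612-75230861 for EREG and chr4:110833789-110834038 for EGF. Letters were searched on both strands over 300 bases that end 50 bases into the gene. The TATA box was searched as TATAAA and the CCAAT box by its name. The GC box, a site for SP factors, was searched as GGGCGG. The AP-1 site, for FOS and JUN, was searched as TGACTCA, and the cyclic AMP response element (CRE) as TGACGTCA. A match is a description of the sequence and not a sign that a factor was bound.

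AREG and EREG were the only members with TATAAA, which was found in 9.63% of 19862 protein-coding promoters of the same length. The box began 29 bases before the start of AREG and 32 bases before that of EREG. AREG was also the only member with TGACGTCA, which began 65 bases before the start and is held by 2.68% of promoters. GGGCGG was found in EGFR, MET, AXL, HBEGF, AREG and TGFA and in 61.5% of all promoters. HBEGF held 5 copies, and its copies from 63 to 58 and from 58 to 53 bases before the start share a base. CCAAT was found in ERBB2, ERBB3, EREG and EGF and in 36.0% of all promoters. TGACTCA was found in ERBB3 and EGF and in 3.56% of all promoters, and in EGF it began 17 bases before the start on the minus strand. G and C made up 75.3% of the 300 bases in EGFR and TGFA and 75.0% in HBEGF. The share was 57.7% in EREG and 46.7% in EGF, against a median of 63.7% over all promoters. EGF, with 4 CpG dinucleotides, and AXL, with 7, had far fewer than the median promoter, which held 23, while HBEGF held 38.

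Most of these genes were expressed in HK2 cells. In both libraries 9 of the 10 members had an FPKM of 1 or more, against 58.8% of all protein-coding genes, and ERBB3 was the exception. With the most abundant transcript of each gene alone the count was 8, as it was with transcripts under an FPKM of 0.1 left out. The median of the members' mean FPKM was 28.9, while that of all protein-coding genes was 3.32. Ordered by mean FPKM, the members ran AXL, MET, HBEGF, AREG, EREG, EGFR, ERBB2, TGFA, EGF and ERBB3. EGFR and ERBB2 had overlapping library values. MET and HBEGF, HBEGF and AREG, EREG and EGFR, and EGF and ERBB3 did not overlap, but the gap between the nearest library values of each pair was smaller than the larger SD of the pair, and 2 libraries give little hold on their order. Summed over the 5 receptors FPKM was 196 and 203 in libraries 1 and 2, and summed over the 5 ligands it was 125 and 127. An exact permutation test of libraries cannot be made within a single condition, and the values are given without one.

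**Figure D1:**
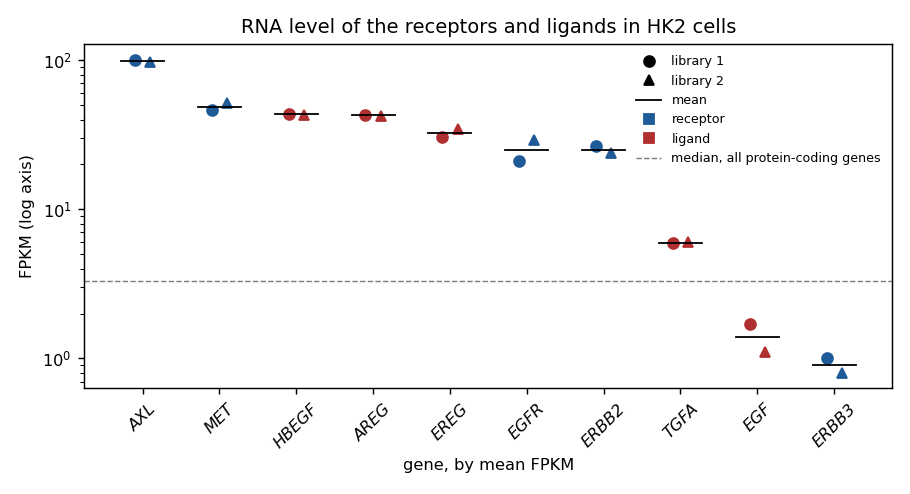
FPKM (log axis) of each receptor (blue) and ligand (red) in library 1 (circles) and library 2 (triangles), with the mean as a bar and the median of all protein-coding genes, 3.32, as a dashed line. AXL is highest at 101 and 97.8, 8 members lie above the median, and EGF and ERBB3 lie below it.

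H3K4me3 within 1 kb of an annotated transcription start site (TSS) was called in both replicates at 9 members, against 70.3% of protein-coding genes. H3K27ac was called there in both replicates at 8 members, against 55.0%, and H3K27me3 at ERBB3 alone, against 11.4%. EGFR, ERBB2, MET, AXL, HBEGF and EREG combined H3K4me3 and H3K27ac with no H3K27me3 in both replicates. These 6 of 10 members compare with 51.4% of protein-coding genes, which is close to the background. With replicate 1 alone there were 9, and the share of protein-coding genes under that rule is not given. The other 4 members each departed in a different way. AREG lacked H3K27ac in replicate 2, EGF lacked H3K4me3 in replicate 2, TGFA had an H3K27me3 peak in replicate 2, and ERBB3 had H3K27me3 in both replicates and no H3K27ac in replicate 2.

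**Figure D2:**
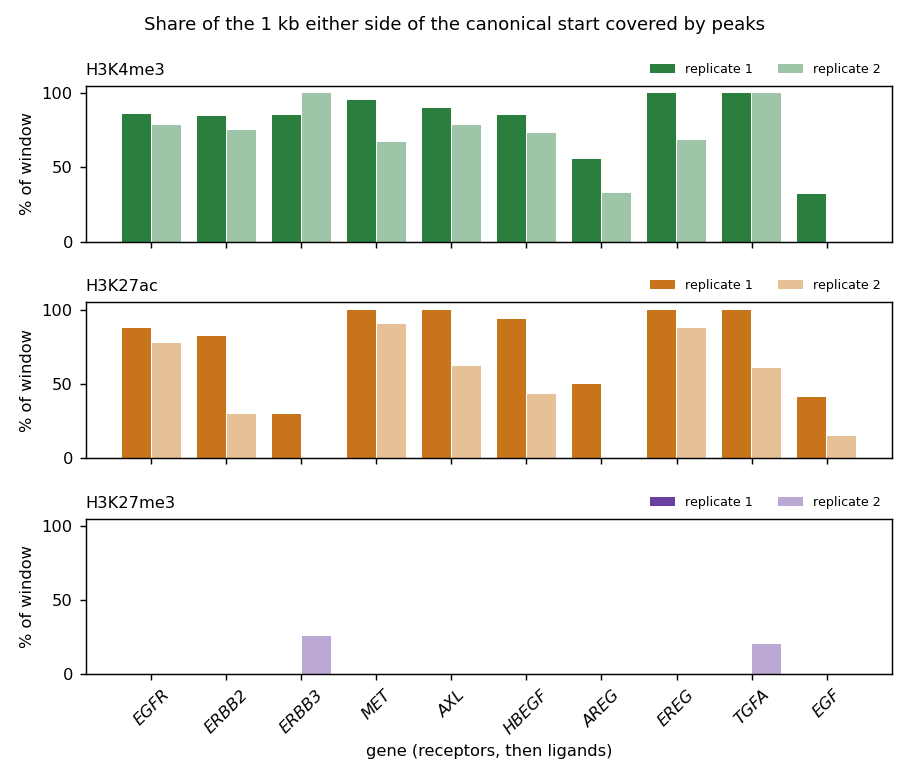
Percent of the 2001 bp centred on the canonical start that peaks cover, for each mark (panels), gene and replicate (dark bar replicate 1, light bar replicate 2). H3K27ac is absent at ERBB3 and AREG in replicate 2, H3K4me3 is absent at EGF in replicate 2, and H3K27me3 touches this window only at ERBB3 and TGFA, in replicate 2.

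EGFR, the receptor of all 5 ligands listed here, had an FPKM of 21.2 in library 1 and 29.0 in library 2. The mean was 25.1 ± 5.53 (SD, n = 2), higher than in 86.1% of protein-coding genes. The libraries differed 1.37-fold, and 6.72% of the 8732 protein-coding genes whose mean FPKM was 5 or more had a larger ratio between libraries. The direction depended on the measure, since aligned bases, scaled to library size, were 223 in library 1 and 187 in library 2, a ratio of 0.839. The division of reads among transcripts differed between the libraries. The full-length transcript ENST00000275493 had an FPKM of 17.6 in library 1 and 9.57 in library 2. A transcript of 1570 bases, ENST00000420316, had 2.36 and 7.94. ENST00000454757 stood at 0 in library 1 and 6.20 in library 2. A base assigned to a shorter transcript adds more to a summed FPKM than a base assigned to a longer one. The gene lies on the plus strand of chromosome 7, from 55086710 to 55279321. H3K4me3 covered its start at positions 55085992 to 55089052 in replicate 1, and at 55086138 to 55088515 in replicate 2. H3K27ac peaks of 4.06 and 2.08 kb lay over the same place, so both active marks were called at the start in each replicate.

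ERBB2, the family member without a ligand of its own, had an FPKM of 26.5 and 23.7, or 25.1 ± 1.94 (SD, n = 2). No transcript dominated. The canonical ENST00000269571 held 20.6% of the mean, ENST00000578373, annotated for nonsense-mediated decay, 18.9%, ENST00000580074 15.5% and ENST00000584450 11.3%. Of its 22 annotated transcripts 17 were above 0 in both libraries. H3K4me3 covered 84.9% of the window around the canonical start in replicate 1 and 75.2% in replicate 2. H3K27ac covered 82.0% and 29.4%. The widest H3K27ac peak near any annotated start of ERBB2 was elsewhere in each replicate, at positions 37843709 to 37846167 on chromosome 17 in replicate 1, and at 37851145 to 37852498 in replicate 2. Both lie upstream of the canonical start at 37856317, near alternative starts.

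ERBB3, the family member with little kinase activity, was the lowest of the 10. Its FPKM was 1.00 in library 1 and 0.801 in library 2, or 0.902 ± 0.143 (SD, n = 2). Short transcripts held most of the summed FPKM. ENST00000411731, of 1027 bases, held 40.5% of it and ENST00000546884, a retained intron of 660 bases, held 36.6%, while the full-length ENST00000267101 had an FPKM of 0.0872 and 0.110. Of the aligned bases of the gene the full-length transcript held 39.2% in library 1 and 55.3% in library 2, the largest share in each. Of 21 transcripts 15 were at 0 in both libraries. The promoter still carried H3K4me3 in both replicates, from 56472764 to 56474654 and from 56472867 to 56474985 on chromosome 12, and in replicate 2 it covered the whole window. H3K27me3 lay just downstream, at positions 56475021 to 56475705 in replicate 1, and at 56474430 to 56475630 in replicate 2. H3K27ac was called in replicate 1, over 697 bp, and not in replicate 2. The H3K27me3 call rested on annotated starts other than the canonical one, because the peak of replicate 1 did not reach the canonical window.

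MET, the HGF receptor, had an FPKM of 46.1 and 51.6, or 48.8 ± 3.87 (SD, n = 2), higher than in 94.0% of protein-coding genes. The full-length ENST00000397752 held 51.7% of the mean FPKM and 81.8% of the aligned bases of the gene in each library. ENST00000422097, of 688 bases, held 20.5% of the FPKM, and ENST00000436117, annotated for nonsense-mediated decay, held 15.1%. Aligned bases thus rested more on the full-length transcript than the FPKM did. MET lies on the plus strand of chromosome 7, from 116312250 to 116438431. H3K27ac covered all of the window around its start in replicate 1 and 90.1% in replicate 2, the latter more than in 96.4% of protein-coding genes. H3K4me3 covered 95.7% and 67.0%.

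AXL, the GAS6 receptor, was the most expressed member. Its FPKM was 101 in library 1 and 97.8 in library 2, or 99.4 ± 2.32 (SD, n = 2), rank 498 among protein-coding genes. The mean was 2.04 times that of MET, the next member, and the libraries of the pair did not overlap. ENST00000301178 held 88.2% of the FPKM and the shorter ENST00000359092 held 10.0%, with nearly equal shares in the libraries. A single H3K27ac peak ran from 41724135 to 41737592 on chromosome 19 in replicate 1, 13.5 kb from upstream of the start into the gene. In replicate 2 the widest peak there ran from 41724894 to 41731454, or 6.56 kb, with smaller peaks after it. H3K4me3 peaks of 3.56 and 2.29 kb marked the start itself.

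HBEGF, a heparin-binding ligand of EGFR, was the highest of the ligands together with AREG. Its FPKM was 43.7 and 43.1, or 43.4 ± 0.394 (SD, n = 2), and ENST00000230990 held 99.1% of it. The gene, transcribed from the minus strand, occupies positions 139712428 to 139726188 of chromosome 5. H3K27ac differed widely in extent between the replicates, with a peak at positions 139720569 to 139727058 in replicate 1, and a peak at 139725337 to 139726205 in replicate 2. Over the gene body H3K27ac covered 79.6% in replicate 1 and 8.18% in replicate 2. H3K4me3 peaks of 2826 and 1999 bp covered the start in both.

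AREG, which encodes amphiregulin, had an FPKM of 43.1 and 42.6, or 42.8 ± 0.329 (SD, n = 2), with 98.5% in ENST00000395748. The marks at its start were narrow. H3K4me3 covered 56.0% of the window around the start in replicate 1 and 33.0% in replicate 2, where the medians over protein-coding genes were 75.9% and 54.8%. H3K27ac covered 49.9% in replicate 1, and no peak was called in replicate 2. In hg19, the build of the peaks, a further copy named AREGB is annotated on chromosome 4 from 75480629 to 75490486, 170 kb from AREG at 75310853 to 75320722. The 300 bases around the 2 starts are identical. Of the 50-base words within 1 kb of the AREG start 93.2% occurred elsewhere in the build, and of those of the whole gene 93.0%. For the other members this share was 2.56% at ERBB2, 1.23% at AXL and 0 at the remaining 7. The study kept only uniquely mapped ChIP-seq reads, and the part of the shared sequence in these calls was not tested. Within AREGB H3K4me3 was called in both replicates and H3K27ac in replicate 1 alone, as at AREG. The annotation of the RNA-seq files, based on GRCh38, holds no AREGB, and whether RNA-seq reads of AREG were divided between copies was not tested.

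EREG, which encodes epiregulin, had an FPKM of 30.7 and 34.5, or 32.6 ± 2.66 (SD, n = 2), with 92.8% in ENST00000244869. It lies 56.4 kb from AREG, and none of the words around its start occurred elsewhere. H3K27ac peaks lay at positions 75229350 to 75236727 on chromosome 4 in replicate 1, and at 75229422 to 75231118 in replicate 2. H3K4me3 covered the whole window in replicate 1 and 68.5% in replicate 2. The 4 EGF-family ligand genes EPGN, EREG, AREG and BTC follow each other on this chromosome. EPGN, which encodes epigen, had no peak of any mark and an FPKM of 0.0925 in library 1 and 0 in library 2. BTC, which encodes betacellulin, had H3K4me3 and H3K27me3 at its start in both replicates, H3K27ac in replicate 1 alone, and an FPKM of 0.902 and 0.971. H3K27me3 was called nowhere from EPGN to AREGB and covered 18.8% of BTC in replicate 1 and 0.528% in replicate 2. These neighbours therefore ranged from no mark, at EPGN, to wide H3K27ac, at EREG.

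TGFA, which encodes transforming growth factor alpha, stood far below these ligands. Its FPKM was 5.95 and 6.01, or 5.98 ± 0.0420 (SD, n = 2), and ENST00000295400 held 77.0% of it. H3K4me3 covered the whole window around its start at 70780958 on chromosome 2 in both replicates, and H3K27ac covered all of it in replicate 1 and 60.8% in replicate 2. An H3K27me3 peak of 438 bp, from 70779931 to 70780368, was called in replicate 2 and none in replicate 1. Without that peak TGFA had the marks of the more highly expressed members.

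EGF itself was the lowest of the 5 ligands, though the FPKM summed over its transcripts was above 1 in both libraries. Its FPKM was 1.69 in library 1 and 1.11 in library 2, or 1.40 ± 0.411 (SD, n = 2), a ratio of 0.655, whereas aligned bases, scaled to library size, were nearly level at 4.36 and 4.26. The full-length ENST00000265171 had an FPKM of 0.0876 and 0.519. ENST00000509793, the most abundant, had a mean FPKM of 0.325 and held 23.3% of the gene's mean. The retained introns ENST00000511228 and ENST00000537316 held 15.2% and 10.7%, and further retained introns held 8.60%, 6.96%, 5.31% and 4.87%. At its start, 110834039 on chromosome 4, a 638-bp H3K4me3 peak was called in replicate 1 and none in replicate 2. H3K27ac covered 40.9% of the window in replicate 1 and 14.6%, a peak of 292 bp, in replicate 2. Of 5 markers of the loop of Henle and distal nephron, where EGF is made in the kidney, none reached an FPKM of 1. Their summed FPKM was 0.0440 and 0.116, and SLC12A3, the highest, had 0.0634 ± 0.0274 (SD, n = 2). SLC12A1, another of these markers, was listed at 0 in both libraries. It nonetheless had H3K4me3 and H3K27ac without H3K27me3 near its starts in both replicates. Bulk RNA of a single line cannot tell a low level in every cell from a higher level in a few cells.

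**Figure D3:**
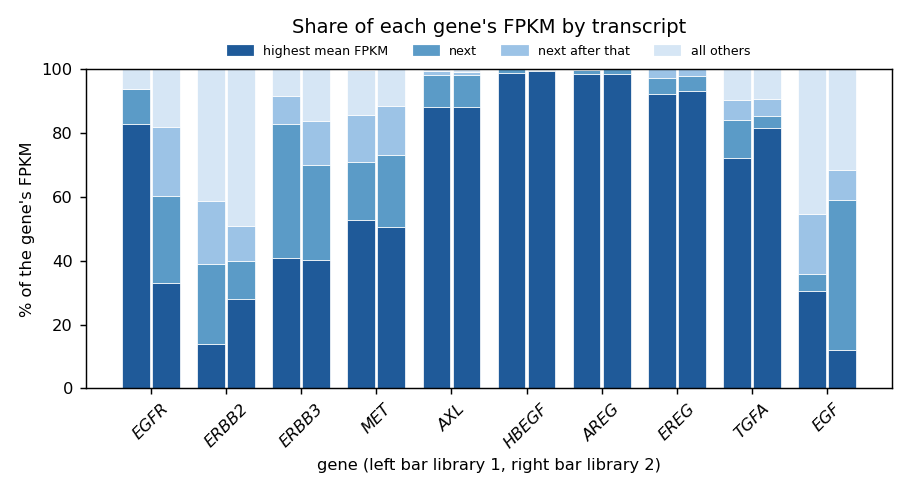
Percent of each gene's FPKM held by its transcript of highest mean FPKM, the next, the one after that and all others, with library 1 as the left bar and library 2 as the right bar. The leading transcript holds 99.1% of HBEGF and 98.5% of AREG, while its share of EGFR is 82.8% in library 1 and 33.0% in library 2.

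H3K27ac peaks inside the gene and more than 1 kb from each of its own starts, where intronic enhancers can lie, were found in both replicates at 8 members. The share of protein-coding genes was 22.0%. ERBB3 and AREG were the exceptions, and AREG had them in replicate 1. The rule asks for such a peak in each replicate and not for the same peak. With the starts of every gene excluded the count was 7, without ERBB2. Long genes hold more such peaks. Of the 3594 protein-coding genes of at least 100 kb, 53.5% had them in both replicates, and EGFR, MET, TGFA and EGF are of that length. Over the whole gene body, peaks near the starts included, EGFR and MET stood high in H3K27ac among these long genes. H3K27ac called in both replicates covered 26.2 kb, or 13.6%, of EGFR and 27.1 kb, or 21.5%, of MET, against a median of 0.607% for genes of that length. By this share MET ranked 14th and EGFR 41st of the 3594. TGFA had 4.15% and EGF 0.440%, a share below that median.

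In EGFR, 15 distant peaks of 44.4 kb in all were called in replicate 1 and 15 of 26.1 kb in replicate 2, and 13 of the latter overlapped a peak of replicate 1. The widest of replicate 1 ran for 14.7 kb from 55128765 to 55143416, in intron 1, and met 4 peaks of replicate 2. Another block in intron 1 lay 112 kb (replicate 1) and 113 kb (replicate 2) from the start, at positions 55195256 to 55203109 in replicate 1, and at 55196865 to 55202742 in replicate 2. Both blocks held H3K4me3 peaks in replicate 1 and none in replicate 2. Intron 1 therefore held the widest distant peaks of EGFR in each replicate.

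In MET, 18 distant peaks of 40.8 kb were called in replicate 1 and 17 of 24.0 kb in replicate 2, and all 17 overlapped a peak of replicate 1. The widest in replicate 1 spanned 14.1 kb in intron 2, from 116344051 to 116358189, and met 6 peaks of replicate 2. In replicate 2 the widest ran from 116326814 to 116330869, in intron 1, within a peak of replicate 1. A further block from 116409370 to 116423212 in replicate 1 also contains an annotated internal start, so it was counted as near a start. In replicate 2 it held the 3.79-kb peak from 116414922 to 116418716, in intron 15.

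The remaining members had shorter distant peaks. EREG had a peak in intron 1 from 75236895 to 75243868 in replicate 1, with 2.32 kb of it called in replicate 2. TGFA had peaks in intron 1, 2.94 kb from 70750473 to 70753407 in replicate 1 and 1.62 kb from 70750700 to 70752322 in replicate 2. For AXL the distant peaks of replicate 2 were 472 and 464 bp in intron 4, and the 6.03-kb peak at the far end in replicate 1 reached past the gene and held H3K4me3 in both replicates. ERBB2 likewise had 1 distant peak per replicate, of 1.11 and 0.594 kb at its far end, which lay within 1 kb of a start of another gene. HBEGF had distant peaks of 3.89 kb in intron 3 and of 324 bp in exon 6 in replicate 1, and neither met a peak of replicate 2, whose only distant peak was 273 bp in intron 2. The widest distant peaks of EGF were 1.56 and 0.323 kb, in intron 5, and replicate 2 had another of 273 bp in intron 10. AREG had 2 in replicate 1, of 833 and 496 bp, and none in replicate 2.

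**Figure D4:**
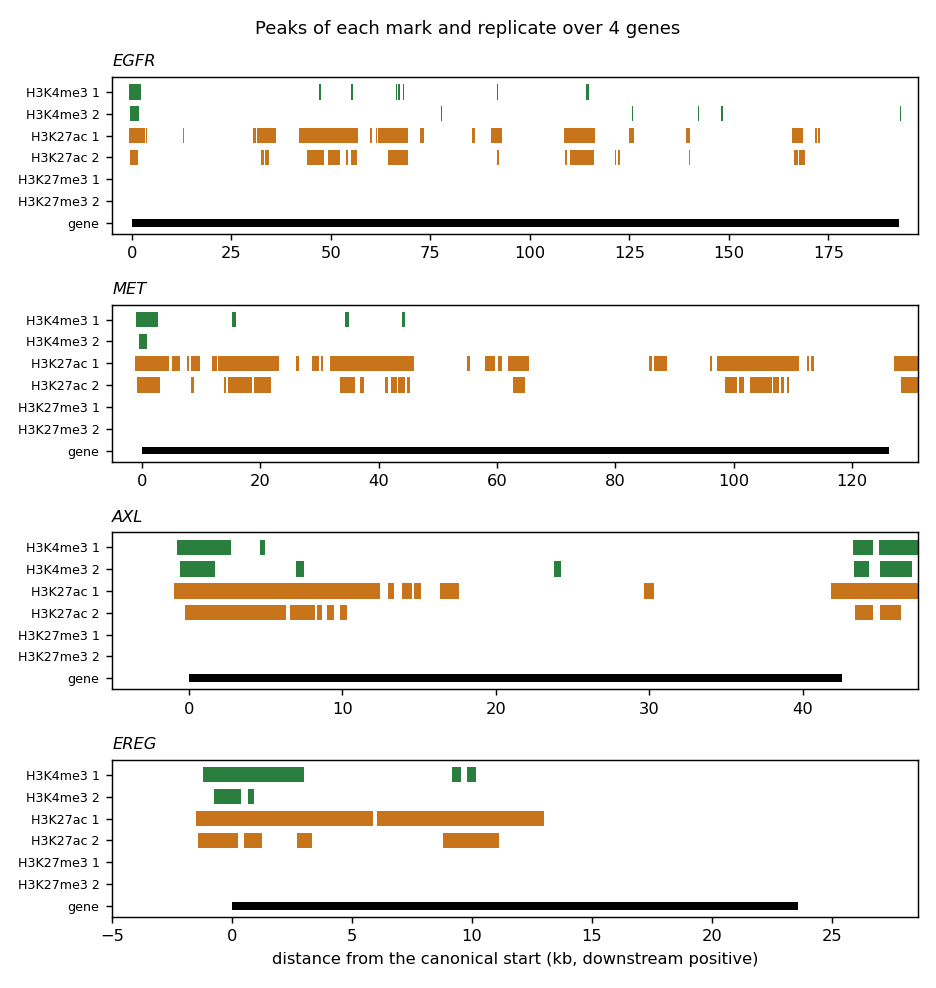
Peaks of each mark and replicate (rows) over EGFR, MET, AXL and EREG and 5 kb either side, by distance from the canonical start in kb, with the gene as a black bar. H3K27ac lies in blocks along EGFR and MET in both replicates with narrower peaks in replicate 2, H3K4me3 lies over each start and in further peaks elsewhere, and H3K27me3 has no peak in these windows.

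Other receptors and ligands of the ERBB family were mostly silent. Of 7 such genes, 1 reached an FPKM of 1 in both libraries, and none had both active marks without H3K27me3. Over all protein-coding genes these shares were 58.8% and 51.4%. NRG1, a neuregulin ligand of ERBB3 and ERBB4, had an FPKM of 24.2 and 19.8, or 22.0 ± 3.07 (SD, n = 2). It carried all 3 marks near its annotated starts in both replicates. ERBB4, the fourth receptor, and NRG3 were listed at 0 in both libraries, NRG2 had a mean of 0.00710 and NRG4 one of 0.0178. At 5 of the 7 genes, namely NRG1, NRG2, NRG3, NRG4 and BTC, H3K27me3 was present in both replicates, against 11.4% of protein-coding genes. ERBB3 was thus found at a low level beside a neuregulin at a level close to that of EGFR.

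Of 12 partners of MET and AXL 7 had an FPKM of 1 or more in both libraries, close to the 58.8% of all protein-coding genes. HGF, the ligand of MET, was listed at 0 in both libraries and had no peak near its starts, and COL1A1, the highest of 5 fibroblast markers, had an FPKM of 40.1 ± 0.290 (SD, n = 2), with COL1A2 listed at 0. MST1 and MST1R, a related ligand and its receptor, had mean FPKM of 0.605 and 0.0887. GAS6, the ligand of AXL, had 32.0 ± 2.87 (SD, n = 2) and PROS1, which binds the related receptors, 20.7 ± 1.19. Of those receptors TYRO3 had 3.40 and MERTK 1.21. The HGF-activating proteases HGFAC and ST14 had 0.203 and 0.235, whereas PLAU, the urokinase, had 73.3 ± 0.712. The protease inhibitors SPINT2 and SPINT1 had 135 ± 8.19 and 16.7 ± 0.163. GAS6 was thus detected in the same libraries as AXL, while HGF was listed at 0 beside MET.

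Genes that act after the ligand binds were broadly expressed. All 25 adaptor and cascade genes reached an FPKM of 1 and had both active marks without H3K27me3 in both replicates. Over all protein-coding genes 51.4% had those marks. The share of all protein-coding genes at an FPKM of 1 in both libraries was 58.8%, which applies to each list below. The median FPKM of the 25 genes was 21.8, where that of all protein-coding genes was 3.32. The highest were MAP2K2 at 55.4, PTPN11 at 38.7 and NRAS at 37.7. Among ligand-shedding genes 6 of 7 reached an FPKM of 1, led by ADAM12 at 19.7, ADAM17 at 17.0 and RHBDF2 at 17.0. TIMP3, an inhibitor of ADAM17, was listed at 0 in both libraries with H3K27me3 in both replicates. Of 14 feedback and turnover genes 13 reached an FPKM of 1, led by the phosphatase PTPN1 at 46.1 and by ERRFI1, an inhibitor of EGFR, at 28.9, followed by SOCS3 at 17.4. DUSP4, a phosphatase of the MAPK cascade, was the exception at 0.00967 and carried H3K4me3 and H3K27me3 in both replicates.

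**Figure D5:**
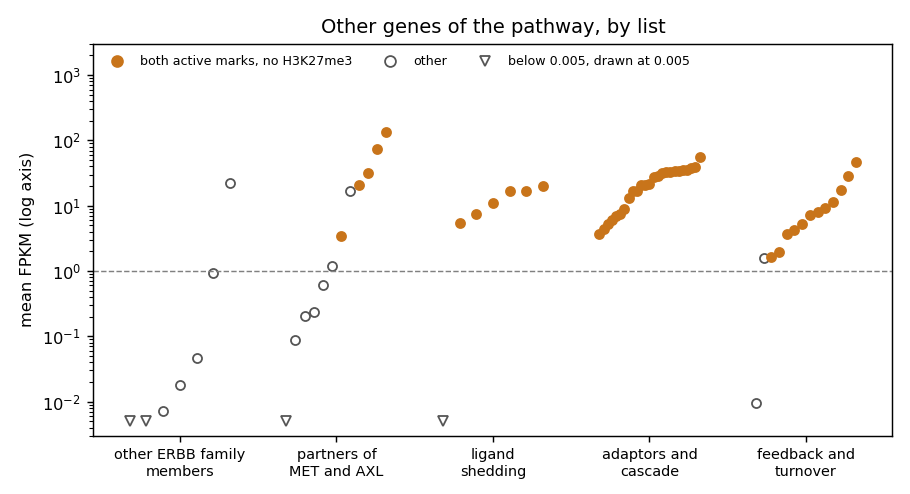
Mean FPKM (log axis) of each gene in 5 lists of the pathway, filled where H3K4me3 and H3K27ac without H3K27me3 were called in both replicates, with triangles for genes listed at 0. All 25 adaptor and cascade genes are filled and above the dashed line at an FPKM of 1, and 1 of the 7 other ERBB-family genes is above it.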

How the data were processed

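RNA was measured in 2 rRNA-depleted RNA-seq libraries, and histone marks in 2 ChIP-seq replicates per mark. Per the labels and the study's methods, the authors trimmed reads with cutadapt, aligned those of ChIP-seq to hg19 using Bowtie2, retained those with a unique match, and ran MACS2 on each replicate against input. They mapped RNA-seq reads with HISAT2 and estimated FPKM, TPM and coverage per transcript with StringTie. The deposited headers name StringTie 1.3.3 and GENCODE version 27, a GRCh38 annotation, whereas the methods state hg19. Versions of the other tools are not given in the sources used here. The deposited peak lists hold positions only, with no score, so they give neither counts nor depth per peak. HiChIP and input samples were not analysed here.

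FPKM was summed per Ensembl gene over its transcripts, with the SD over libraries. Aligned bases were coverage times transcript length. RNA values were joined to hg19 peaks by Ensembl identifier, never by position, and TSSs came from GENCODE version 44 mapped to GRCh37. A peak counted at a promoter when it overlapped 1 kb either side of any TSS of the gene by 1 bp or more, on 24 chromosomes. Canonical means the Ensembl canonical transcript. Percentiles and background shares used the 19646 protein-coding genes found in both sources, of 20163 in the annotation. Promoter sequence and the words of 50 bases were read from GRCh37, with words counted on both strands over the whole assembly. Overlap, word and motif code was tested on simulated data with known answers. Python 3.11.15, numpy 2.4.6, pandas 2.3.3, numba 0.67.0 and matplotlib 3.10.9 were used.

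With a single condition no test between groups was made and no p-value is given. Named items were all members, every gene of the ERBB-family and of the MET and AXL partner lists, the 3 highest genes and every gene under an FPKM of 1 in the other pathway lists, the highest gene of each marker list (proximal tubule, epithelium, loop of Henle and distal nephron, podocyte, endothelium, fibroblast, leukocyte), every proximal tubule marker but 1 that is not reported here, transcripts with at least 10% of a gene's mean FPKM, the widest promoter peaks and the 2 widest distant H3K27ac peaks. LUM, COL1A2, CDH1, CDH2 and SLC12A1 were named after their values were seen. Members and lists were chosen with earlier results of these data known. Alternatives covered the FPKM minimum, TPM, the transcripts summed, the TSS window, the starts used, peak width, overlap and single replicates.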

Additional observations from a re-analysis of the deposited data

How the results depend on the processing

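Most counts of members kept within 1.5 times their value under every alternative run. The H3K27me3 count, 1 gene (ERBB3), did not. It became 0 with a 500 bp window, with the canonical start alone and with at least 200 bp of the window covered. It became 2, ERBB3 and TGFA, with a peak in either replicate, and leaving out a ChIP-seq replicate gave 1 to 2. The count with distant H3K27ac, 8, became 5 with peaks of at least 500 bp and 5 with at least 200 bp shared by the replicates, and AXL, HBEGF and EGF were lost in both. The former limit removes their short peaks of replicate 2 by construction. The latter compares distant peaks with distant peaks alone. Those of AXL and HBEGF in replicate 2 lay within peaks of replicate 1 that reached near a start, and those of EGF shared less than 200 bp. Leaving out a ChIP-seq replicate gave 8 to 9 members for that count, 9 to 10 for H3K4me3, 8 to 10 for H3K27ac and 6 to 9 for both active marks without H3K27me3, the highest values coming without replicate 2. Leaving out an RNA-seq library gave 9 to 10 members at an FPKM of 1. Shares of all protein-coding genes are given for the main settings alone. With words of 100 bases, an alternative chosen after seeing the data, 86.3% of the words around the AREG start occurred elsewhere. Aligned bases in place of FPKM, also chosen after seeing the data, turned the library ratio of EGFR from 1.37 to 0.839. The most abundant transcript alone moved the FPKM of 8 members by more than 1 SD, the lowest values being 0.325 for EGF and 0.365 for ERBB3, with ERBB2 at 5.16. No paired analysis was possible because a single condition leaves no groups to pair. Peak lists without scores and 2 libraries limit what can be resolved. The lists give no depth per peak, and the part of sequencing depth in the differences between replicates was not tested.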
